A study of Mus musculus with 16 samples.

Results

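The genes of glycolysis, lactate export and the response to low oxygen were examined in mouse CD8+ T cells after Tardbp had been targeted. The module held 31 genes, chosen by gene symbol after the difference between the 2 groups of libraries was already known, so the gene levels below describe that choice and do not test it. The 31 symbols matched 32 identifiers among 55536 annotated genes, because Aldoa is annotated at 2 loci, of which the one with nearly all of the counts was used. All 31 members had enough counts to be tested.

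OT-I CD8+ T cells, whose transgenic T cell receptor sees the SIINFEKL peptide of ovalbumin, were on a C57BL/6J background. The methods list the OT-I mice as deficient in Rag1 or Rag2, and the donors for the guides as carrying CD45.1 and CD45.2. The OT-I cells were electroporated with Cas9 nuclease complexed to a scrambled guide (Control gRNA, 8 libraries) or to a guide against Tardbp (Tardbp gRNA, 8 libraries). They were then moved into C57BL/6J recipient mice, for which the sources give differing ages. Both groups received the peptide and agonist antibodies to OX40 and 41BB. CD8+ T cells were sorted from spleen and lymph nodes after 4 days per the labels, and the methods of the study give a shorter time. Its results text names a stimulation of the purified cells beside the sequencing, without detail. Whether the sequenced cells were restimulated is therefore not clear. TDP-43, the product of Tardbp, binds RNA and acts in splicing. A guide gives a mixture of edited and unedited cells, not a clone, and no group without stimulation or without costimulation was analysed here.

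Glycolysis splits glucose into pyruvate in the cytosol, and activated CD8+ T cells turn much of that pyruvate into lactate, which leaves through monocarboxylate carriers. HIF-1, a dimer of an oxygen-regulated subunit (Hif1a) and a constant partner (Arnt), is a known activator of many of these genes. In oxygen, prolyl hydroxylases mark the regulated subunit and the Vhl protein directs its destruction, so most of its control lies at the protein and is not measured in RNA.

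Promoter sequence is shown first for 6 members, because HIF-1 and the E-box factors are the classical regulators of this module and their core letters can be read directly. The letters are from RefSeq (GRCm38.p6), lie before the start of a RefSeq transcript and avoid every annotated exon. For Slc16a3, Ldha and Hif1a that start lies inside the GENCODE gene, other transcripts of which begin further upstream. Capitals mark ACGTG, the core of the HIF-binding element, or its reverse complement CACGT. Where the palindrome CACGTG (an E-box) occurs, both strands match and the overlap is written as 6 capitals. Slc16a3 and Slc16a1, the lactate carriers, hold 1 shown match at chr11:120948933-120949052 (plus strand) and an E-box at chr3:104638414-104638533 (plus strand).
Slc16a3: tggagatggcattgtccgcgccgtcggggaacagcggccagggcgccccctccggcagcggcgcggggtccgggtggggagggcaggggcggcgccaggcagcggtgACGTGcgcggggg
Slc16a1: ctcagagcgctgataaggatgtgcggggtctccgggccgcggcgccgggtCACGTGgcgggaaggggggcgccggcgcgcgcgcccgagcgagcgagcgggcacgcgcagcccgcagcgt
Hk2, a hexokinase, and Ldha, which makes lactate, are shown at chr6:82774455-82774574 (minus strand) and chr7:46845684-46845803 (plus strand).
Hk2: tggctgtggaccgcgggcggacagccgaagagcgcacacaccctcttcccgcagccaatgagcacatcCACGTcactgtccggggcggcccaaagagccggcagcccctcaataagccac
Ldha: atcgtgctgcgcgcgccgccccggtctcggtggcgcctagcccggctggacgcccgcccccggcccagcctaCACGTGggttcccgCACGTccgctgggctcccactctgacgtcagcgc
Bnip3, a mitophagy receptor, and Hif1a itself are shown at chr7:138909552-138909671 (minus strand) and chr12:73907707-73907826 (plus strand).
Bnip3: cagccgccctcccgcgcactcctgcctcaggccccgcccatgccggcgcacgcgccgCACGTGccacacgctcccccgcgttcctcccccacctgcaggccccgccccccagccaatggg
Hif1a: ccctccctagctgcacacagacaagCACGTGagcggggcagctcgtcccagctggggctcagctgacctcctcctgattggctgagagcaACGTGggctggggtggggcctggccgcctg

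RefSeq promoters were found for 30 of the 31 members, with Slc2a3 not among them, and gave 43 windows of 250 letters before a start. ACGTG stood on either strand in 20 of the 43 member windows (46.5%) and in 5444 of all 32851 windows (16.6%). Counted by gene, 17 of 30 members and 18.5% of the 27025 genes in the table had at least 1 such window. Among the members called lower in Tardbp gRNA, as defined below, 12 of 20 held a match, as did 5 of the 10 others. Member windows also held more G and C, with a median of 60.4% against 52.4% over all windows, and 21.3% of all windows with a G and C content of 54.8% to 66.8%, the middle range of the members, held the letters. A match describes the sequence and is not evidence of binding.

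The libraries held 56016533 to 94801105 estimated counts from 29714709 to 48164083 read pairs. Tardbp itself lay at 171.8 to 206.9 CPM (counts relative to library size, scaled by TMM factors) in Control gRNA and at 110.4 to 147.2 CPM in Tardbp gRNA. RNA does not measure the protein, which the paper reports by immunoblot as absent from cells given the Tardbp guide. The 8 listed CD8 T cell markers were present and all higher in Tardbp gRNA, with a summed level of 4012 to 4859 CPM against 5304 to 6728 CPM. Markers of other cells also moved with the group. Red cell precursor genes summed to 0.442 to 17.9 CPM in Control gRNA and 9.11 to 182.1 CPM in Tardbp gRNA (4 of 5 tested genes called higher, all globins), and myeloid genes to 37.0 to 66.4 and 63.5 to 122.6 CPM (2 of 7 called). B cell genes summed to 389 to 475 CPM and 553 to 722 CPM, and of the 6 tested only Ighm was called, while the defining gene Pax5 stayed at or under 0.0259 CPM in every library. Neutrophil genes reached at most 7.01 CPM (1 of 2 tested genes called higher), and CD4 T cell, natural killer cell and platelet genes had no called member and summed to at most 20.7, 4.03 and 2.60 CPM. The concentration of RNA before dilution, deposited without a unit, ran from 34.9 to 197.1 among Control libraries and from 10.1 to 24.0 among Tardbp libraries, so it did not overlap between groups. Control libraries 6 and 7 were the highest of their group in Slc16a3, Bnip3, Hk2, Pfkl, Pdk1 and Pkm. They were also the highest in Tpi1, Hif1a, Slc2a1, Aldoa, Pgam1, Pgk1, Eno1, Gpi1 and Pfkm. The part of these differences in the results was not tested. In bulk RNA, fewer cells of a kind and less RNA per cell cannot be told apart.

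Most members were lower in Tardbp gRNA. Calls were made with edgeR's quasi-likelihood test, with Benjamini-Hochberg adjustment over all 16650 tested genes and a threshold of 0.05. Of the 31 members, 21 were called lower and 2 higher, and 8 were not called. Over all tested genes 46.7% were called, 23.3% lower and 23.5% higher. For 16 members, all lower, the 8 Tardbp libraries did not overlap the 8 Control libraries, where 16.9% of all tested genes did not overlap and 10.3% did not overlap and were lower. Without Control libraries 6 and 7, a setting added after seeing the data, 21 members were called lower and 1 higher, where 22.3% of all tested genes were called lower and 17.4% higher. The median log2 fold change (Tardbp gRNA minus Control gRNA) was -0.41 over the members and 0.05 over all tested genes.

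**Figure D1:**
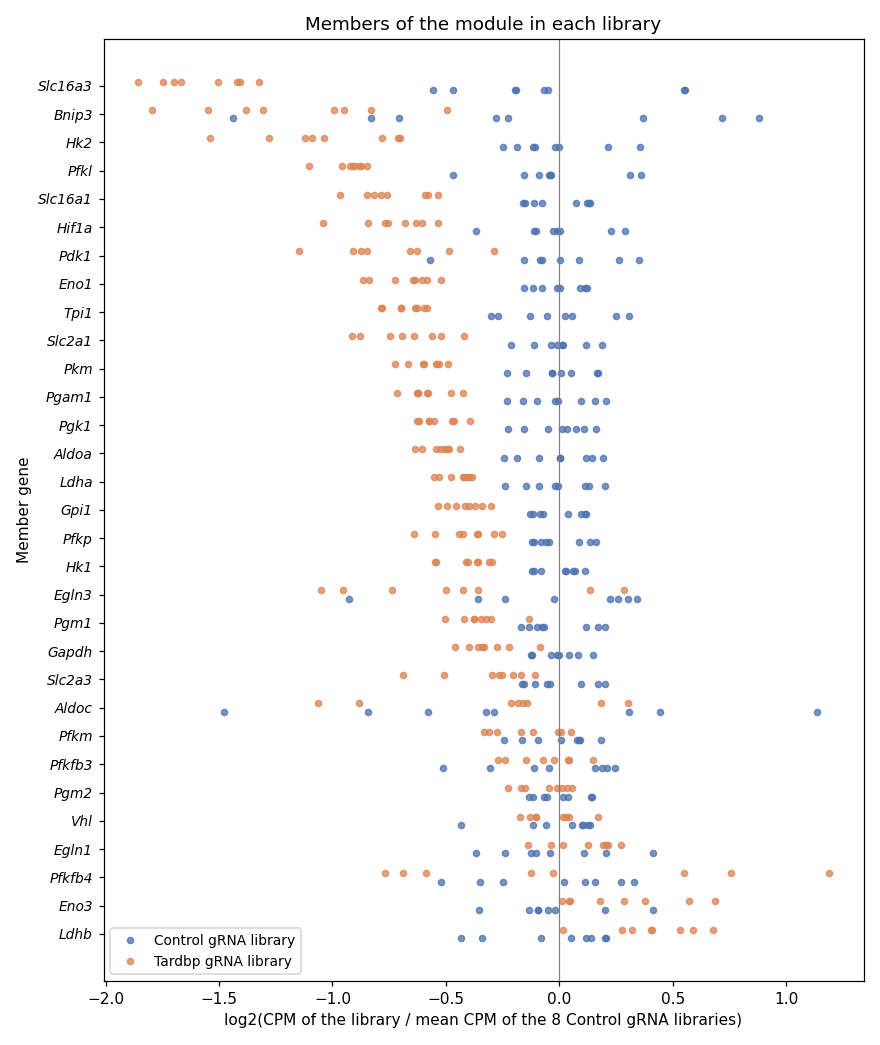
Each point is 1 library, placed by the log2 ratio of its CPM to the mean CPM of the 8 Control gRNA libraries (horizontal axis), for the 31 member genes (vertical axis, in the order of the log2 fold change); blue points are Control gRNA and orange points Tardbp gRNA. The orange points lie left of all blue points for 16 members, those from Slc16a3 at the top down to Hk1 except Bnip3 and Pdk1, while Eno3 and Ldhb at the bottom are shifted to the right with overlap.

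The lactate carriers stood at the low end. Slc16a3 (MCT4, a carrier with a main role in lactate export; ENSMUSG00000025161.16, protein coding, chromosome 11, 120948480 to 120960868, GRCm38) had 18.8 CPM in the lowest, 25.3 in the median and 40.6 in the highest Control library, and 7.64, 9.23 and 11.1 CPM in the Tardbp libraries. Control libraries 6 and 7 were the highest, both above 40 CPM, and no Tardbp library reached the lowest Control library. The log2 fold change was -1.57 (SE 0.153), and -1.35 without Control libraries 6 and 7, a setting added after seeing the data. Slc16a1 (MCT1, which carries lactate and pyruvate in both directions; chromosome 3, 104638668 to 104658462) had 199.2, 222.7 and 244.4 CPM in Control gRNA and 114.1, 130.4 and 154.0 CPM in Tardbp gRNA as the lowest, median and highest values. Its groups did not overlap either, with a log2 fold change of -0.73 (SE 0.067). Bsg and Emb, which code for the partner chains that bring these carriers to the membrane, were not called, at log2 fold changes of -0.03 (SE 0.043) and -0.06 (SE 0.057).

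The 2 glucose carriers differed in size of change. Slc2a1 (GLUT1) had 65.0, 75.3 and 85.8 CPM as lowest, median and highest Control values and 40.0, 47.5 and 56.2 CPM in Tardbp gRNA, with no overlap and a log2 fold change of -0.66 (SE 0.073). Slc2a3 (GLUT3), a carrier of high affinity, had 87.6, 95.1 and 113.1 CPM against 60.9, 82.1 and 91.1 CPM. Some Tardbp libraries thus lay inside the Control range of Slc2a3, which was called lower at -0.30 (SE 0.079).

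Among the kinases that commit glucose to the pathway, Hk2 and Pfkl had the largest differences. Hk2 (an inducible hexokinase; chromosome 6, 82725025 to 82774454, minus strand) had 17.7, 20.1 and 26.9 CPM in Control gRNA and 7.23, 10.04 and 12.9 CPM in Tardbp gRNA, a log2 fold change of -1.01 (SE 0.119). Hk1, the more abundant hexokinase, went from 216.8, 240.3 and 255.1 CPM to 161.3, 180.7 and 191.7 CPM, at -0.40 (SE 0.047). Neither gene overlapped between the groups.

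Pfkl (the liver-type phosphofructokinase; chromosome 10, 77986947 to 78010083, minus strand) had 195.8, 262.9 and 347.1 CPM in Control gRNA and 126.0, 144.4 and 150.6 CPM in Tardbp gRNA. The Tardbp libraries were close together and below every Control library, with a log2 fold change of -0.92 (SE 0.089). Pfkp, the platelet type, was also lower without overlap, with medians of 632.1 and 498.0 CPM and a log2 fold change of -0.41 (SE 0.058). Pfkm, the muscle type, had medians of 8.56 and 7.52 CPM and was not called (-0.14, SE 0.082). Gpi1, which makes fructose 6-phosphate for these kinases, had medians of 580.2 and 442.4 CPM without overlap (-0.41, SE 0.046).

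Pfkfb3 and Pfkfb4, whose products set the level of fructose 2,6-bisphosphate and so the activity of phosphofructokinase, were not called. Pfkfb3 had medians of 10.5 CPM in Control gRNA and 9.74 CPM in Tardbp gRNA (-0.06, SE 0.106), and Pfkfb4 had 1.52 and 1.38 CPM (0.20, SE 0.264). Both overlapped between the groups.

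The main enzymes of the lower pathway given here were lower, at log2 fold changes from -0.67 to -0.45. Aldolase Aldoa had medians of 1079 CPM in Control gRNA and 752 CPM in Tardbp gRNA (log2 fold change -0.53, SE 0.057), and triose phosphate isomerase Tpi1 874.2 and 556.4 CPM (-0.67, SE 0.076). Phosphoglycerate kinase Pgk1 had 585.7 and 389.7 CPM (-0.53, SE 0.053) and phosphoglycerate mutase Pgam1 538.7 and 357.9 CPM (-0.58, SE 0.060). These 4 genes did not overlap between the groups. Enolase Eno1 (chromosome 4, 150236721 to 150248879) ranged from 2961 through a median of 3293 to 3594 CPM in Control gRNA and from 1814 through 2116 to 2300 CPM in Tardbp gRNA, at -0.67 (SE 0.054). Pyruvate kinase Pkm (chromosome 9, 59656368 to 59679375) ranged from 2107 through 2455 to 2789 CPM and from 1497 through 1669 to 1763 CPM, at -0.59 (SE 0.054). Lactate dehydrogenase Ldha (chromosome 7, 46841475 to 46855627), the most abundant member, ranged from 3485 through 4077 to 4719 CPM and from 2799 through 3067 to 3145 CPM, at -0.45 (SE 0.054). In all 3 the highest Tardbp library lay under the lowest Control library.

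Among the minor forms of these enzymes 2 were called higher and 1 was not called. Ldhb, the form of lactate dehydrogenase typical of heart, had 3.34, 4.79 and 5.22 CPM as lowest, median and highest Control values and 4.57, 5.99 and 7.22 CPM in Tardbp gRNA, and was called higher at 0.41 (SE 0.114). Eno3, the muscle enolase, had 12.1, 14.7 and 20.6 CPM against 15.6, 18.2 and 24.9 CPM, called higher at 0.30 (SE 0.116). Both overlapped between groups, and the Eno3 call was lost when any of 11 single libraries was left out, with log2 fold changes of 0.20 to 0.36 over all 16 such fits. Aldoc, the brain aldolase, was not called, with medians of 1.36 and 1.49 CPM (-0.21, SE 0.305).

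Gapdh (chromosome 6, 125161715 to 125166467, minus strand), the dehydrogenase in the middle of the pathway, is described apart because most counts on sequences like it had been placed elsewhere. A total of 74 annotated pseudogenes matched Gapdh transcripts on the same strand at 95% identity or more over at least 300 bases, and 91.4% of the counts on Gapdh and these copies together had been placed on the copies. By library this share ran from 91.3% to 91.6% among Control libraries and from 90.96% to 91.65% among Tardbp libraries. The Gapdh gene alone had 304.2, 330.0 and 367.3 CPM in Control gRNA and 241.2, 262.5 and 312.5 CPM in Tardbp gRNA, with overlap and a log2 fold change of -0.31 (SE 0.052). With the copies added, in an alternative chosen after seeing the data, the values were 3518, 3825 and 4321 CPM against 2827, 3133 and 3456 CPM, with no overlap and a log2 fold change of -0.32 (SE 0.046). Of the 65 copies that could be tested, 39 were called lower and 0 higher. Whether reads of Gapdh or transcripts of the copies gave these counts cannot be told apart. Annotated pseudogene copies took 10.3% of the joint counts for Pgam1, 6.69% for Eno1, 6.24% for Pgk1 and 2.02% for Pkm, and at most 1.13% for the other members. No member's call changed when they were added. Eno1b, annotated as a protein-coding retrogene and so not among these copies, held a further 356190 counts (9.36% of its sum with Eno1) and was called lower at -0.63 (SE 0.057).

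**Figure D2:**
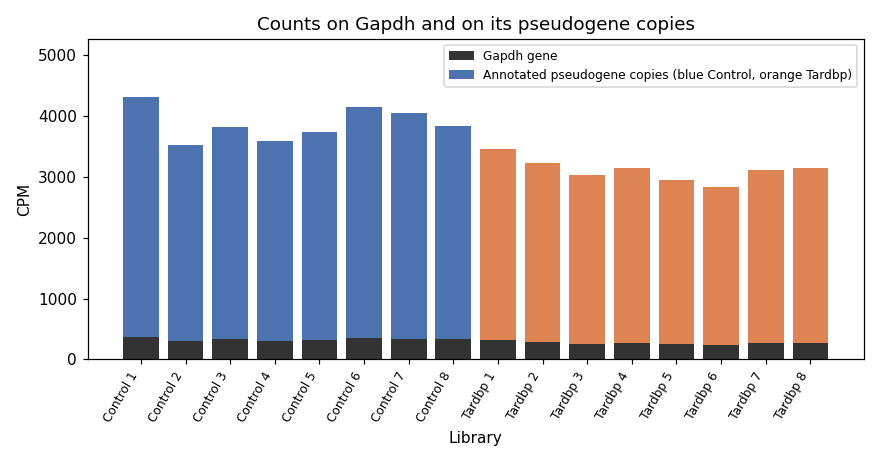
Stacked bars give, for each of the 16 libraries (horizontal axis), the CPM (vertical axis, from 0) placed on the Gapdh gene (dark) and on its 74 pseudogene copies (blue for Control gRNA, orange for Tardbp gRNA). The dark part is 241.2 to 367.3 CPM, while the whole bars run from 3518 to 4321 CPM in Control gRNA and from 2827 to 3456 CPM in Tardbp gRNA.

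The genes of the oxygen response were mixed. Hif1a (chromosome 12, 73901375 to 73947530) had 284.6, 362.7 and 449.7 CPM as lowest, median and highest Control values and 178.4, 223.8 and 253.9 CPM in Tardbp gRNA, a log2 fold change of -0.73 (SE 0.084) with no overlap. The 3 members whose products limit its protein were not called. Vhl had medians of 38.0 and 34.9 CPM (-0.03, SE 0.076), Egln1, a prolyl hydroxylase, 14.5 and 17.0 CPM (0.11, SE 0.099), and Egln3, a form of the same enzyme that low oxygen is known to induce, 2.44 and 1.65 CPM (-0.38, SE 0.214).

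Bnip3 and Pdk1, whose products act at mitochondria, were called lower with overlap. Bnip3 (chromosome 7, 138890836 to 138909519, minus strand) had 1.85, 4.21 and 9.23 CPM as lowest, median and highest Control values and 1.45, 2.27 and 3.55 CPM in Tardbp gRNA. Its log2 fold change was -1.11 (SE 0.289), or -0.72 without Control libraries 6 and 7, and its SD among Control libraries was 53.5% of the mean against 29.3% in Tardbp gRNA. Pdk1, the kinase that shuts pyruvate out of oxidation, had 21.7, 31.4 and 41.2 CPM against 14.6, 19.2 and 26.4 CPM, at -0.71 (SE 0.126). The phosphoglucomutases, which join glycolysis to glycogen, differed. Pgm1 was called lower with medians of 77.5 and 63.4 CPM (-0.34, SE 0.064), and Pgm2 was not called with 43.9 and 43.6 CPM (-0.06, SE 0.057).

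Levels were compared between genes as counts per kilobase of each transcript, summed over the transcripts of the gene on the same scale as CPM. Ldha led in Control gRNA with 2582 ± 267.1 (SD, n = 8), followed by Eno1 at 1639 ± 121.4, Pkm at 1026 ± 98.3, Aldoa at 713.5 ± 77.1 and Tpi1 at 562.1 ± 86.7. Ldha, Eno1 and Pkm were each apart from the next gene in every Control library range, whereas the ranges of Aldoa and Tpi1 overlapped, and so did those of Pgk1 (315.9 ± 28.4) and Pgam1 (307.2 ± 32.6). Gapdh was eighth at 237.3 ± 15.4 alone and at 3710 ± 265.6 with its copies, which would place it above Ldha. At the other end stood Egln3 (0.852 ± 0.225), Aldoc (0.731 ± 0.368) and Pfkfb4 (0.557 ± 0.141), whose ranges overlapped.

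**Figure D3:**
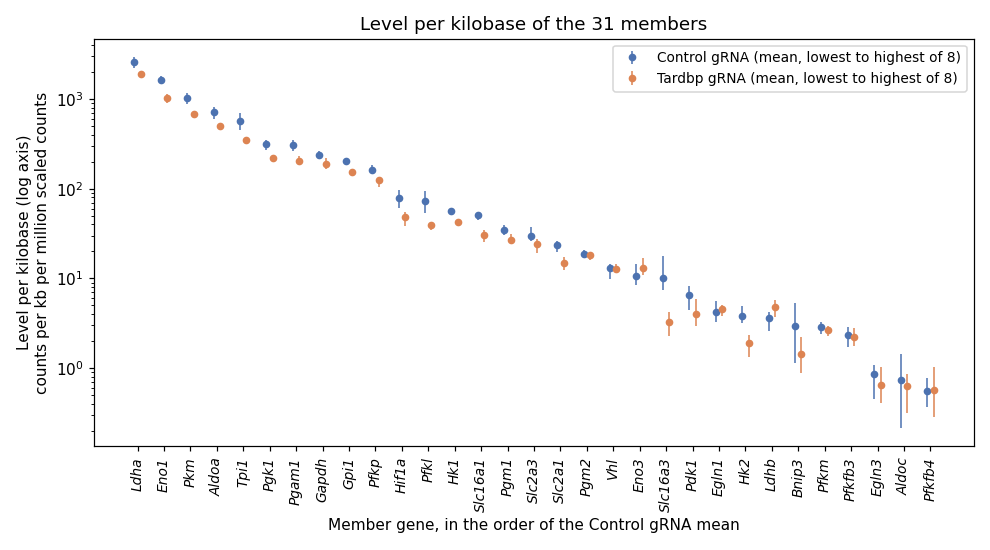
The level per kilobase of each member (vertical axis, log scale, counts per kilobase on the CPM scale) is plotted in the order of the Control gRNA mean (horizontal axis), with points at the mean of 8 libraries and bars from the lowest to the highest library. Levels span from 2582 for Ldha to 0.557 for Pfkfb4 in Control gRNA.

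The make-up of some enzyme families differed between the groups on the same scale, which is a description of the contrast that chose the members. Slc16a3 took 16.5% ± 3.5 (SD, n = 8) of the level of the 2 lactate carriers in Control gRNA and 9.68% ± 1.3 (n = 8) in Tardbp gRNA, and the summed level of the pair in Tardbp gRNA was 55.7% of that in Control gRNA. Ldhb took 0.140% and 0.257% of lactate dehydrogenase, Eno3 0.647% and 1.25% of the enolases, and Pfkm 1.217% and 1.594% of phosphofructokinase. None of these shares overlapped between the groups. Hk2 took 6.34% ± 0.83 and 4.28% ± 0.75 of hexokinase, and Pfkl 30.8% ± 4.8 and 23.9% ± 1.3 of phosphofructokinase, both with overlap. Summed levels in Tardbp gRNA were 63.2% of Control gRNA for enolase, 69.3% for phosphofructokinase, 73.4% for lactate dehydrogenase and 73.8% for hexokinase, but 97.2% for the Pfkfb pair and 102.9% for the prolyl hydroxylases.

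**Figure D4:**
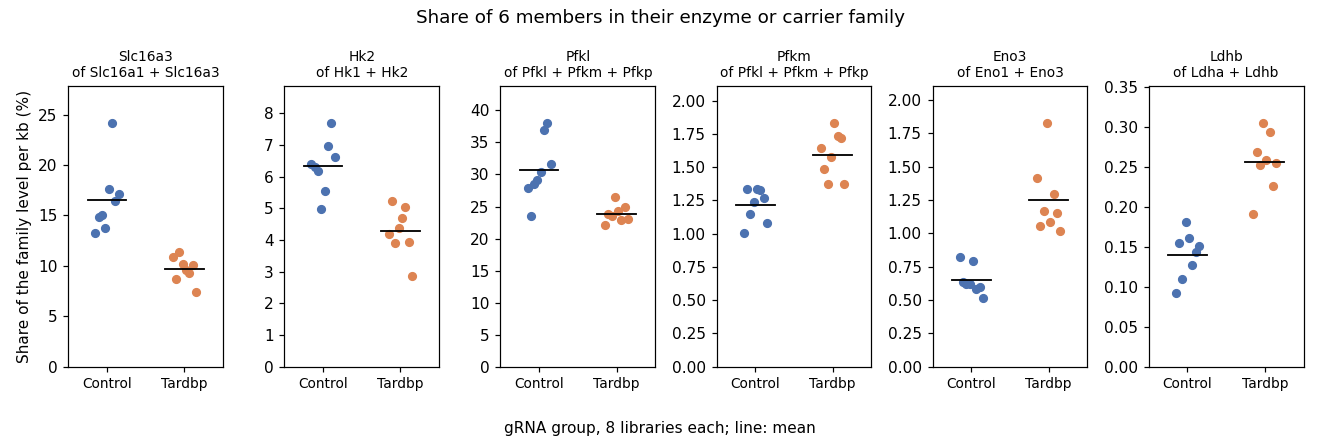
Each panel gives the share (vertical axis, percent, from 0) of 1 member in the summed level per kilobase of its family, with 1 point per library and a line at the mean for the 2 groups (horizontal axis). The groups are apart for Slc16a3 (lower in Tardbp gRNA) and for Pfkm, Eno3 and Ldhb (higher), and overlap for Hk2 and Pfkl.

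Pkm is known for a pair of mutually exclusive exons, of which the first gives the M1 form and the second the M2 form of pyruvate kinase. The 2 exons are shown because the RNA of these cells used nearly only one. They lie at chr9:59675029-59675195 and chr9:59675568-59675734 (plus strand, GRCm38), have 167 bases each and share 103 of 167 positions (61.7%), and capitals mark the 64 positions that differ. The letters are from the GENCODE transcripts Pkm-202 and Pkm-201.
Pkm first exon: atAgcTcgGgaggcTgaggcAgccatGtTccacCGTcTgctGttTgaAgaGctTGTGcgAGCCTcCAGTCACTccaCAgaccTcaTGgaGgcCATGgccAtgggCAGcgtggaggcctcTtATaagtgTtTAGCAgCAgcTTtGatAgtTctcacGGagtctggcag
Pkm second exon: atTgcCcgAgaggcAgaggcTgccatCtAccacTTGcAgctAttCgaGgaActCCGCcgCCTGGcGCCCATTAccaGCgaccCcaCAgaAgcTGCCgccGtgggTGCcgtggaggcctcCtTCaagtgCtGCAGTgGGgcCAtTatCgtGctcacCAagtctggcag
The transcript with the first exon took 1.42%, 1.63% and 5.79% (lowest, median, highest) of the counts on both in Control gRNA and 1.34%, 1.43% and 1.77% in Tardbp gRNA. Control library 8 alone gave the 5.79%, and the other Control libraries had at most 1.74%. Psi, the fraction of transcripts that include a node, is given once per group in the deposited table. For the first exon Psi was 0.0166 in the column read as Control gRNA and 0.0197 in the other, and for the second exon 0.9999 and 0.9971.

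Transcripts of the members were examined apart from the genes. Of 236 annotated transcripts 108 could be tested and 28 were called by edgeR, all lower, against 16.6% of all 40897 tested transcripts called in either direction. The share of all tested transcripts called lower was not computed. The transcript with most counts was called lower in every member called lower as a gene, except Slc2a3. Hk2-201, Slc16a1-201 and Pgk1-201 each had over 99% of their gene's counts, at log2 fold changes of -1.05 (SE 0.134), -0.77 (SE 0.076) and -0.58 (SE 0.062). The counts of Slc16a3 were divided between Slc16a3-208, with 46.3% on average in Control gRNA and 53.6% with the Tardbp gRNA, and Slc16a3-201, with 42.6% and 41.2%, and the SDs of these shares were 19.2 to 23.3 percentage points. Most counts of Tpi1 lay on Tpi1-204, annotated as a retained intron, with 59.2% ± 8.6 in Control gRNA and 58.0% ± 9.4 in Tardbp gRNA (SD, n = 8).

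The share of a transcript in its gene did not pass the test for any member. Of 98 shares in 21 members, limma called 0 at an adjusted p under 0.05 with a difference over 0.1, where 0.63% of all 32701 tested shares were called, and 9 of the 98 had an unadjusted p under 0.05. Aldoa-201 had 72.7% ± 10.2 of Aldoa in Control gRNA and 85.6% ± 7.1 in Tardbp gRNA (SD, n = 8), and Aldoa-202 had 21.3% ± 5.1 and 13.4% ± 6.5. Without Tardbp library 1 both of these Aldoa shares were called, at differences of 15.27 and -10.04 percentage points with limma adjusted p of 0.0376 and 0.0116.

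Psi gave the 3' ends and exons of the members, as 1 value per group with no error. The deposited header names the 2 groups of Psi only by letter. The first was read as Control gRNA because the text of the study places the higher inclusion of Ikzf1 exon 4 in Tardbp gRNA, so each direction below rests on that reading. Of 345 nodes in the 31 members, 15 differed by more than 0.1 (4.35%), against 4.70% of all 125520 nodes. These 15 lay in 7 members, with 12 among the 31 tandem 3' end nodes, 2 among the 13 start nodes and 1 among the 292 core exons. Over all genes 21.5% of 3' end nodes, 20.4% of start nodes and 0.932% of core exons differed by as much.

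Slc16a3 had the largest of these differences. Its first 3' end segment (chr11:120957855-120958775, plus strand) went from 0.816 in Control gRNA to 0.537 with the Tardbp gRNA, and the next segment (chr11:120958776-120959000) from 0.163 to 0.417. At the last exon of Pfkfb3, segments at chr2:11471826-11474406 and chr2:11471433-11471790 (minus strand) had 0.478 and 0.262, and 0.105 and 0.349. A core exon of Pfkfb3 at chr2:11480198-11480371 had 0.801 and 0.625. In Ldha the 2 neighbouring start segments at chr7:46847082-46847130 and chr7:46847131-46847388 (plus strand) had 0.650 and 0.433, and 0.349 and 0.568. Nodes at the 3' ends of Aldoc, Eno3, Hk1 and Hk2 differed by 0.10 to 0.16 in size. In each of these genes a node fell and another rose, so the nodes are not separate changes. The rising nodes of Eno3 (chr11:70662511-70662513) and Hk1 (chr10:62269104-62269107) cover only a few bases. The number of reads behind each value is unknown here.

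Whether members varied together within a group was examined against Slc16a3, taken as the reference after its values were seen. No such relation was computed for genes outside the module, so the counts below have no share over all genes beside them. Control libraries 6 and 7 had over 40 CPM of Slc16a3 and stood apart from the other 6, which had at most 26.7 CPM. Over those other 6 Control libraries 24 of 30 members had a positive Pearson r with Slc16a3 (log2 CPM), with a median r of 0.48. None passed the adjustment over the 30 relations by Pearson's r (smallest adjusted exact permutation p = 0.488) or by Spearman's rho. Orders of 6 libraries are few, so even a perfect single relation could hardly reach a p that passes. The lack of calls therefore decides little. Pkm was the 1 member with an unadjusted p under 0.05, at r of 0.86 (exact permutation p = 0.0458, n = 6) and rho of 0.60 (exact permutation p = 0.242). For Bnip3, r was 0.74 (exact permutation p = 0.0972, n = 6), and for Pdk1 0.72 (exact permutation p = 0.0764, n = 6). Over all 8 Control libraries 6 relations (Bnip3, Pkm, Pfkl, Pdk1, Tpi1 and Hk2) passed by Pearson's r and 0 by Spearman's rho. Without libraries 6 and 7 these 6 calls were lost, with r of 0.55 (Hk2) to 0.86 (Pkm). The test then had fewer libraries and a narrower range of Slc16a3, so the loss does not show that the relations are absent. Over the 8 Tardbp libraries 20 of 30 members had a positive r, with a median of 0.39, and none passed. Eno1 was highest there at r of 0.84 (exact permutation p = 0.00826, adjusted 0.0610, n = 8) and rho of 0.83 (exact permutation p = 0.0154, adjusted 0.152), with r of 0.78 without the 2 libraries farthest from the median of Slc16a3. Adjusted values over 8 libraries count 60 relations, 30 in each group. Whether the relations differ between the groups was not tested, and library numbers 1 to 3 are too few for a relation within them.

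**Figure D5:**
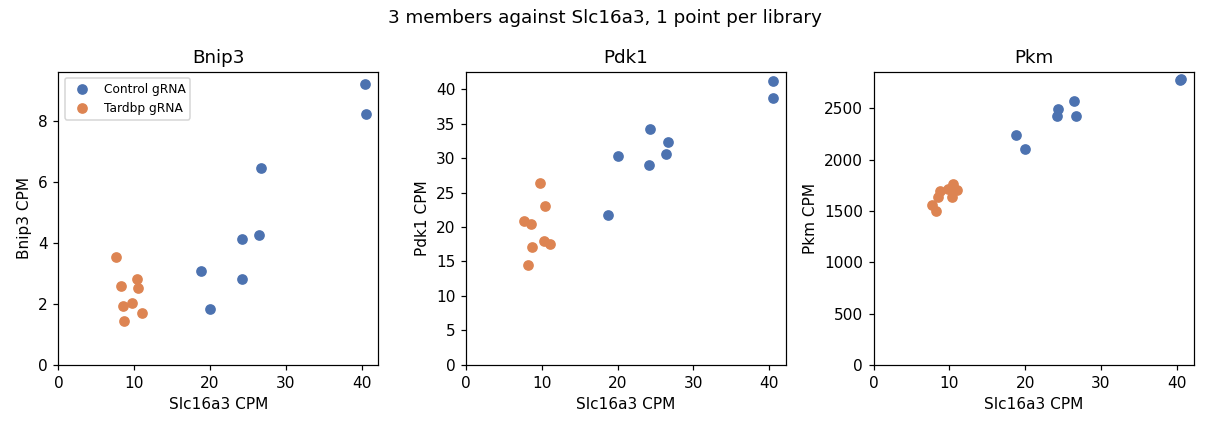
Each point is 1 library, with the CPM of Slc16a3 on the horizontal axis and the CPM of Bnip3, Pdk1 or Pkm on the vertical axis of the 3 panels, all from 0; blue is Control gRNA and orange Tardbp gRNA. In all 3 panels the 2 Control libraries with over 40 CPM of Slc16a3 are also the highest in the second gene.

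Each library carried a deposited letter, M or F, with 3 M in Control gRNA and 5 M in Tardbp gRNA. All 16 libraries held Xist, which female cells express, at 9.82 to 69.0 CPM, and Ddx3y of the Y chromosome at 18.3 to 39.0 CPM, so the letter did not divide the libraries by sex-linked RNA. The edgeR fit with both terms called 0 members and 0 of the 16650 genes for the letter (0% of genes called), with 661 genes at an unadjusted p under 0.05, and DESeq2 called 34 genes and 0 members. Eno3, Hif1a and Slc2a3 were the 3 members with an unadjusted p under 0.05 for the letter. The interaction of group and letter likewise called 0 members and 0 genes (0%) with edgeR, with 662 genes at an unadjusted p under 0.05, and 5 genes and 0 members with DESeq2. Slc2a1 was the 1 member with an unadjusted p under 0.05.

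Libraries numbered 4 to 8 differed from those numbered 1 to 3 in 0.811% of genes, a division that no label names, and no member was called. An unadjusted p under 0.05 was seen for 6 members. Pfkp was the lowest of them at a log2 difference of -0.18 (SE 0.044, edgeR adjusted p 0.0684), and Bnip3 the highest at 0.65 (SE 0.271, edgeR adjusted p 0.364). Within numbers 1 to 3 alone 16 members were called, all lower, where 6.76% of all tested genes were called lower and 3.3% higher. Within numbers 4 to 8 alone 23 members were called, 22 of them lower, where 21.1% of genes were called lower and 19.7% higher.

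Other genes of the pathways were read from lists that were also written with the group difference known, and each count stands against 23.3% of all tested genes called lower and 23.5% higher. Of 13 tested genes for the entry of pyruvate into mitochondria 8 were lower and 2 higher. Pdpr, a regulator of the phosphatase of pyruvate dehydrogenase, and Dlat, a core chain of that complex, were lowest at -0.64 (SE 0.096) and -0.45 (SE 0.052). Pdk2, a relative of Pdk1, went the other way at 2.04 (SE 0.271), from 0.270 to 1.86 CPM in Control gRNA to 3.44 to 4.68 CPM in Tardbp gRNA without overlap, and Mpc2, a chain of the mitochondrial pyruvate carrier, was at 0.55 (SE 0.063).

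Of the 13 tested genes of oxygen sensing 5 were lower and 6 higher. The lowest were Arnt2 at -1.65 (SE 0.617) and Epas1, which encodes HIF-2 alpha, at -1.53 (SE 0.150). Arnt2 was at a very low level with overlap, with means of 0.370 CPM in Control gRNA and 0.116 CPM in Tardbp gRNA. Epas1 had 6.74 to 15.4 CPM in Control gRNA and 2.86 to 4.42 CPM in Tardbp gRNA, with no overlap. Arnt, the partner of Hif1a, was also lower without overlap at -0.83 (SE 0.076). Egln2, another prolyl hydroxylase, was called higher at 0.19 (SE 0.062), and Hif1an was called lower with overlap at -0.37 (SE 0.081). Of the genes for chains of the ligase that Vhl guides, Cul2 was called lower without overlap at -0.59 (SE 0.055), and Elob at 0.32 (SE 0.040), Rbx1 at 0.18 (SE 0.047) and Eloc at 0.15 (SE 0.051) were called higher. The highest were Cited2, an inhibitor of HIF-1, at 0.69 (SE 0.226) and Siah1a at 0.56 (SE 0.187).

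The 28 tested genes known to be induced by low oxygen gave 10 lower and 4 higher, with 14 not called. The lowest were Ak4, a mitochondrial adenylate kinase, at -2.26 (SE 0.576) and the carbonic anhydrase Car12 at -0.89 (SE 0.154), and the highest were Zfp395 at 1.10 (SE 0.216) and Bnip3l, a mitophagy receptor related to Bnip3, at 0.38 (SE 0.082). Ak4 was at a low level with overlap, with means of 1.52 CPM in Control gRNA and 0.317 CPM in Tardbp gRNA. Zfp395 had means of 1.41 and 3.05 CPM. Vegfa, a classical target, was under 1 CPM in every library and was not called.

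The pentose phosphate pathway, which branches from glycolysis at glucose 6-phosphate, had 5 lower and 4 higher of 10 tested. Rpia at -0.48 (SE 0.121) and transketolase Tkt at -0.47 (SE 0.043) were lowest, and Tktl1 at 0.67 (SE 0.262) and Rbks at 0.44 (SE 0.116) highest. Tktl1 was at a very low level with overlap, with means of 0.4545 CPM in Control gRNA and 0.723 CPM in Tardbp gRNA. Of 10 tested glycogen genes 3 were lower and 2 higher, among them the phosphorylases Pygb at -0.60 (SE 0.058) and Pygl at 0.98 (SE 0.354), and Gyg at 0.16 (SE 0.042). Pygl was also at a low level with overlap, with means of 0.519 CPM in Control gRNA and 1.025 CPM in Tardbp gRNA. Of 9 tested other glycolysis genes 2 were lower and 3 higher, Pgam2 at -0.92 (SE 0.262), Tigar at -0.29 (SE 0.082), Eno2 at 1.44 (SE 0.545) and Galm at 0.37 (SE 0.107) being the outermost. Low levels with overlap were seen for Pgam2, with means of 0.936 CPM in Control gRNA and 0.495 CPM in Tardbp gRNA, and for Eno2 (0.256 and 0.702 CPM). Of 10 tested other carriers 1 was lower, Slc16a6 at -0.47 (SE 0.067), and 1 higher, Slc2a8 at 0.44 (SE 0.093).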

How the data were processed

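RNA of sorted CD8+ T cells was made into 16 libraries (SMART-Seq v4 and Nextera XT, paired reads). The authors used HISAT2 2.1.0 against mm10 and deposited estimated counts per gene and per transcript from StringTie 2.1.0, as whole numbers without normalization. Counts of read pairs were also deposited. The authors ran Whippet and deposited Psi as a fraction per group, beside the difference of Psi and its probability, which were not used. The table held 10 columns of counts that matched no sample, which were left out, and 26345 lines with no annotated gene (at most 0.132% of counts) stayed out of totals and tests.

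For genes and transcripts, edgeR 4.0.16 under R 4.3.3 was used (quasi-likelihood, TMM, filterByExpr with minimum count 10 and minimum total 15, no covariate), two-sided, at a Benjamini-Hochberg adjusted p under 0.05. DESeq2 1.42.0 was an alternative. Transcript shares were tested with limma 3.58.1. CPM are scaled by TMM factors. Since StringTie shares reads among like sequences, copies at 95% identity were summed in an alternative. Replicates were separate recipients per the results text of the study. Its methods describe donor cells divided by group before electroporation, and whether the libraries of a guide shared an electroporation is not stated. If they did, the SE and p measure the spread between recipients, and guide and electroporation cannot be told apart. Library pairs within a group differed by more than counting noise (lowest chi-square per degree of freedom 17.4). Scripts were tested on simulated data. Members and lists were chosen with earlier results of these data known. Genes named are Tardbp, all 31 members, the 2 highest and 2 lowest called genes of each list, member transcripts with at least 5% of their gene, and genes on which a result turns, except that some items are not reported here. Of the latter, Bsg, Emb, Vegfa, Arnt, Egln2, Hif1an, Cul2, Elob, Eloc, Rbx1, Eno1b and single markers were chosen after their values were seen.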

Additional observations from a re-analysis of the deposited data

Results flagged for a closer look

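In 70 sets of 8 values (members, depth, genes detected, RNA concentration and the exon share of Pkm in each group), 2 values stood apart from the other 7 by Dixon's ratio, where chance alone marks about 1 set in 20. Control library 8 had 5.79% of the Pkm counts on the transcript with the first of the 2 exclusive exons, against 1.42% to 1.74% in the other Control libraries. Tardbp library 6 had 126.0 CPM of Pfkl, against 139.3 to 150.6 CPM in the other Tardbp libraries. Neither library was left out, and the cause was not tested.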

How the results depend on the processing

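Over 33 settings, the reported fit included, 12 members were called lower in each one (Slc16a3, Hk2, Pfkl, Slc16a1, Hif1a, Eno1, Tpi1, Slc2a1, Pkm, Pgam1, Pgk1 and Aldoa). The share of all tested genes called in every setting was not computed. Ldha, Gpi1 and Hk1 lost their call only under the cut at a log2 fold change over 0.5. The replicate numbers did not pair the libraries. Same-numbered deviations correlated at -0.0048 to 0.160, 2 of 8 over 0.1, and 2 of 8 Control libraries correlated best with their own number. With the replicate block 7645 genes, 23 members and 26 member transcripts were called. Leaving out single libraries gave 7265 to 7734 genes (3280 to 3820 higher, 3692 to 4166 lower), 22 to 23 members with 21 lower and 1 to 2 higher, 28 to 31 member transcripts and 0 to 2 shares, the 2 without Tardbp library 1.

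The other settings moved counts as follows. A log2 fold change over 0.5 left 3362 genes (1965 higher, 1397 lower) and 14 members (0 higher). With log2 RNA concentration as covariate 2697 genes (1010 higher, 1687 lower) and 16 members (15 lower, 1 higher) were called, and calls were lost for Bnip3 (-0.69), Gapdh (-0.24), Ldhb (0.30), Pdk1 (-0.57), Pfkp (-0.36), Pgm1 (-0.30) and Slc2a3 (-0.40). Concentration and group do not overlap, so their effects cannot be told apart. Within library numbers 1 to 3, 1696 genes (556 higher, 1140 lower) and 16 members, 0 of them higher, were called, with calls lost in 3 libraries a group for Bnip3 (-0.54), Eno3 (0.22), Gapdh (-0.26), Ldhb (0.60), Pdk1 (-0.54), Pgm1 (-0.18) and Slc2a3 (-0.34). Upper-quartile factors gave 4865 higher and 3086 lower genes, against 3906 and 3877. One member was called higher without a filter on low counts, at an adjusted p under 0.01, with the letter as covariate, within numbers 4 to 8 (where Egln3 became called at -0.62), and without Control libraries 6 and 7 (a setting chosen after seeing the data, with 21 lower).

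Changes of sign touched only members that were not called. Upper-quartile factors gave Pfkfb3 0.0132, Pgm2 0.0128 and Vhl 0.0449, the letter Vhl 0.00152, and RNA concentration Aldoc 0.0829 and Pfkfb3 0.31. Within numbers 1 to 3, Aldoc was at 0.60, Egln3 at 0.0643, Pfkfb4 at -0.27 and Vhl at 0.0264. Aldoc ran from -0.335 to 0.0620 when single libraries were left out (0.0620 without Control library 7) and Pfkfb4 from -0.0429 (without Tardbp library 8) to 0.283, and Aldoc was at 0.0285 without Control libraries 6 and 7. The causes were not tested. Levels per kilobase by union exon length moved for 22 of 31 members, and the top 5 kept their order.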
